A study of Rattus norvegicus with 8 samples.

Results

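Transcript levels in the hindbrain part of Pax6 homozygous rat embryos were compared with those in wild-type embryos at stage E12.5. The comparison used the 4 arrays titled as hindbrain, 2 wild-type and 2 Pax6 homozygous, of 8 arrays in the series. It covered 8740 of the 8799 probe sets of an Affymetrix rat expression array of the U34 set, leaving out 59 control probe sets of the array. The other 4 arrays hold the forebrain part of the same 2 genotypes. They entered the estimate of the spread between arrays and the test of whether a genotype difference depended on region. The series was made to find genes downstream of Pax6 in the early brain. The hindbrain part was the tissue between a cut at the isthmus and a cut at the upper forelimb level. It also held the pharyngeal arches, and can hold spinal cord and trunk tissue near the caudal cut. The labels call the mutants Pax6 homozygous and name no allele. The arrays of a group carry the numbers 1st and 2nd, and nothing in the labels says that they came from separate litters or embryos. P-values here therefore reflect the spread among these arrays alone, and that spread may be technical.

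Pax6 is a transcription factor with a paired domain and a homeodomain. In the hindbrain and spinal cord it is made by progenitors of the ventral and intermediate neural tube. There it helps to set the border with the most ventral, Nkx2-2 positive progenitors, and it is needed for the normal identity of somatic motor neurons and V1 interneurons. Fabp7, the brain fatty acid binding protein, is made by neural progenitors and radial glia and is a known downstream gene of Pax6.

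The hindbrain label was checked against position markers. Hoxa5 (L03556_at), a Hox gene of the caudal hindbrain and spinal cord, was at 2041 and 2723 on the wild-type and at 2378 and 1955 on the Pax6 homozygous hindbrain arrays, and between -95.5 and 37 on the 4 forebrain arrays. Alx1 (L14018_at), a homeobox gene of frontonasal mesenchyme, was at 116 to 378 in hindbrain and 4693 to 7274 in forebrain. Lhx2 (L06804_at), a homeobox gene of forebrain and eye, was at 1444 to 1801 in hindbrain and 7768 to 8692 in forebrain. Hoxa5, Alx1 and Lhx2 thus lay on the side of their labels on every array. Other position markers did not all do so. Nr2f1 (U10995_g_at) overlapped between regions, at 15178 to 19798 in hindbrain and 13146 to 17067 in forebrain. Crybb3, listed as a forebrain and eye gene, lay on the side of its label in wild-type embryos, at 89.6 and 292 in hindbrain and 1779 and 2240 in forebrain. In mutant embryos it was at 656 and 537 in hindbrain, above its 469 and 156 in forebrain. Both mutant forebrain values were under the noise level described below.

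Values are intensities as the authors deposited them, on a linear scale with a common mean for all arrays. Many are negative, so each array was given a noise level, the size of its 5th percentile, below which a value was treated as dim. This level was 620 and 271 on the wild-type hindbrain arrays and 389 and 243 on the Pax6 homozygous ones. Between 48.8% of probe sets, on the 1st wild-type array, and 61.2%, on the 2nd Pax6 homozygous array, lay above it. The spread between arrays of 1 genotype was as large as the gap between genotypes. Log2 values of the 2 wild-type arrays differed by a median of 0.40 and those of the 2 Pax6 homozygous arrays by 0.30. Wild-type and Pax6 homozygous arrays with the same number differed by medians of 0.32 and 0.28.

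Fabp7 (U02096_at) fell in the Pax6 homozygous hindbrain and was the only probe set that passed the test. The 2 wild-type arrays read 16568 and 15111, and the 2 Pax6 homozygous arrays read 1190.1 and 1205. Both mutant values lay far below both wild-type values, yet both were above their array's noise level. The log2 difference was -3.80 on the 1st arrays and -3.65 on the 2nd, which is a 13.9-fold lower intensity on the 1st. The log2 change was -3.72 ± 0.23 (SE, limma, adjusted p = 0.000558), which is 13.2-fold lower. Passing means an adjusted p below 0.05 over the 5881 probe sets bright enough to be tested, and 0.017% of them (1 probe set) passed. In tissue pieces like these, fewer Fabp7-expressing cells and less Fabp7 RNA per cell cannot be told apart. In forebrain the same probe set was at 3117 and 3934 in wild-type and at 528 and 472 in mutant embryos. The forebrain log2 change was -2.81, and the difference between the regional changes was 0.91 ± 0.33 (limma interaction, adjusted p = 0.9995).

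The stretch before the start of this gene is shown because Fabp7 carried the only call. The 250 bases lie on the plus strand at chr20:37669356-37669605 in the rat build GRCr8, from RefSeq. Capitals mark matches to TAAT, the core that homeodomains bind, on either strand.

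Fabp7: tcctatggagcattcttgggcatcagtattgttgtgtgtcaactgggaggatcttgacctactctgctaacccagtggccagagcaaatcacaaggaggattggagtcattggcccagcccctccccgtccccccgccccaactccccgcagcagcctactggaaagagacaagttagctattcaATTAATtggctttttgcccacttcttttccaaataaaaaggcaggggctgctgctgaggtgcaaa

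TAAT had 2 matches there, which overlap, beginning 65 and 63 bases before the annotated start. Of 33469 RefSeq promoter stretches of this length, 57% hold at least 1 match and 32.7% hold at least 2. The palindromes that pairs of paired-type homeodomains can bind, with TAAT and ATTA set 3 or 2 bases apart, had 0 matches on either strand and occur in 0.382% and 0.427% of promoters. TTCACGC, part of the site that the Pax6 paired domain binds, also had 0 (1.06%). These matches describe the letters of this window and are not measurements of binding.

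Of 12 listed lipid and retinoid binding proteins on the array 6 were tested, and those other than Fabp7 did not pass. Fabp5, the epidermal fatty acid binding protein, was at 43834 and 41343 in wild-type and 38186 and 41647 in mutant hindbrain (log2 change -0.09 ± 0.13). Crabp1, a cellular retinoic acid binding protein, was at 51159 and 50985 against 48746 and 53698 (0.00 ± 0.13). Crabp2, its relative, had a log2 change of -0.08 ± 0.26. In all 3 the genotypes overlapped. Fabp3, the heart form, was the 1 of 6 members whose mutant arrays both lay above the wild-type arrays, at 1930.2 and 2156 against 1591 and 1625 (0.34 ± 0.26). Of all genes tested, 19.5% had both mutant arrays above wild-type. Fabp6, the ileal form, had a log2 change of 0.40 ± 0.35 with overlapping groups.

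**Figure D1:**
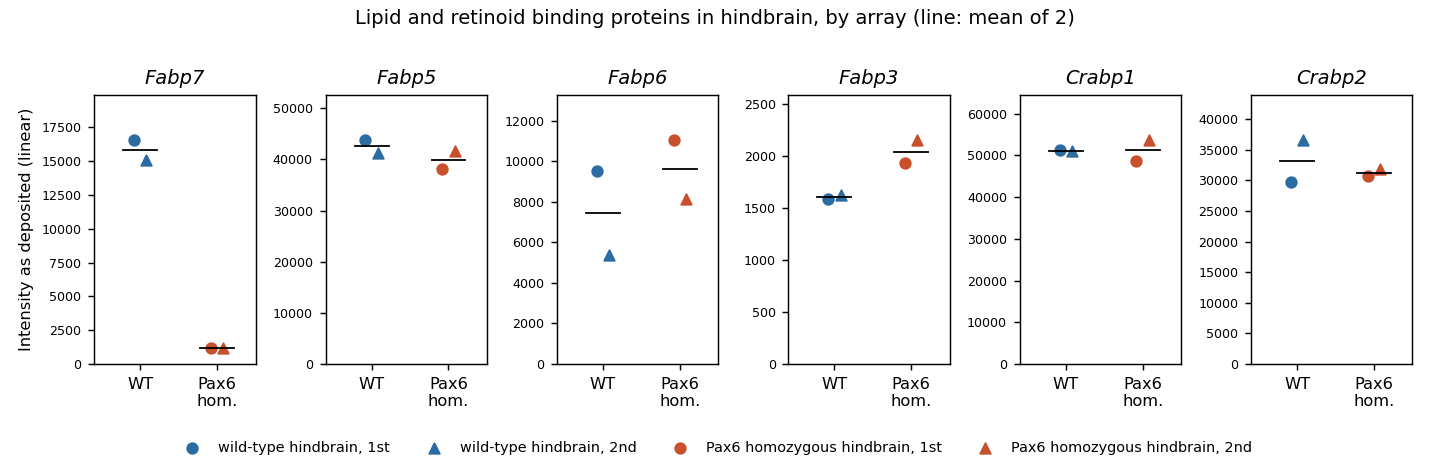
Deposited intensity (linear, each panel from 0) of 6 lipid and retinoid binding proteins on the 2 wild-type (WT) and 2 Pax6 homozygous (Pax6 hom.) hindbrain arrays. Points are arrays and lines are means of 2. Fabp7 drops from 16568 and 15111 to 1190.1 and 1205, and the log2 changes of the other 5 lie between -0.09 and 0.40.

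Pax6 itself was read by S74393_s_at, at 827 and 531 in wild-type and 1194 and 1111 in mutant hindbrain. The mutant arrays were the higher ones (log2 change 0.80 ± 0.42, limma adjusted p = 0.989). The sources used here do not say which part of the transcript this probe set reads, so the level checks nothing about the genotype. Of 24 genes listed as known or proposed Pax6 targets, 9 were tested. Fabp7 passed, 5 of 9 had a negative log2 change, and the median was -0.17, against 0.03 over the 3553 genes tested. When 1 array was left out the median ran from -0.33 to 0.004. Fabp7 entered that list from general knowledge that can rest on these same arrays, so it is no independent evidence there. Neurog1, a proneural factor, was at 439 and 712 against 301 and 239, and only 1 of these 4 values was above noise. Its log2 change was -1.06 ± 0.58, with the 1st wild-type value itself under noise. Ncam1, the neural cell adhesion molecule, was at 5123 and 5134 against 4072 and 2683 (-0.63 ± 0.35). Pou3f3, a POU factor of neural progenitors, was at 4046 and 5873 against 7205 and 5717 with overlap (0.40 ± 0.23). Foxd3, a factor of early neural crest, had a log2 change of 0.05 ± 0.32.

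Over all probe sets the genotypes were close. With limma, 264 of 5881 probe sets (4.49%) had an unadjusted p below 0.05, where uniform p-values would give 294. Of these, 111 were lower in the mutant (1.89%) and 153 higher (2.6%). Both mutant arrays lay below both wild-type arrays for 850 probe sets (14.5%) and above them for 1181 (20.1%). The differences on the 1st arrays and those on the 2nd arrays had a Pearson r of 0.21 across the 4048 probe sets above noise on all 4 arrays. This r is a description across probe sets, which are not independent. The second smallest adjusted p was 0.0620, for a probe set of Pgk1. Beyond Fabp7, no gene named below passed in the main fit. With the replicate number as a block, the Pgk1 probe set passed (limma adjusted p = 0.0498).

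**Figure D2:**
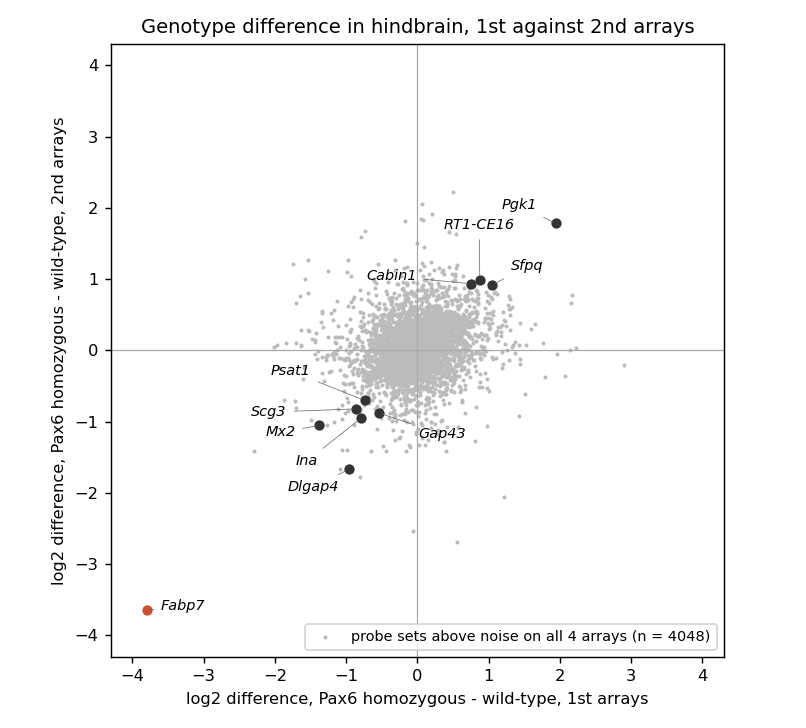
Log2 difference, Pax6 homozygous minus wild-type, on the 1st arrays (horizontal) and the 2nd arrays (vertical) for the 4048 tested probe sets above noise on all 4 hindbrain arrays. Fabp7 lies alone at the lower left, Pgk1 lies at the upper right, and the other labelled genes lie at the edge of the main cloud.

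Genes of neuronal differentiation had lower values in the mutant hindbrain, though none passed. Of 30 tested genes, 26 had a negative log2 change, against 45.8% of all genes. The mutant arrays lay below the wild-type arrays for 19 (14.8% of all genes) and above them for 1 (19.5% of all genes). The median was -0.25, and 5 had an unadjusted p below 0.05, all lower (64 of all 3553 genes were lower at that p). Differences were negative on both array numbers for 23 of the 30 (882 of all 3553 genes). This list, like the others, was written with earlier results of these data known. Its counts describe these arrays and are no independent evidence. Ina, the intermediate filament alpha-internexin of young neurons, was at 17907 and 18647 in wild-type and 10326 and 9638 in mutant hindbrain (M73049_at, log2 change -0.87 ± 0.20). Its other probe set gave -0.76 ± 0.17. Gap43, a protein of growth cones, was at 8376 and 11392 against 5739 and 6202 (-0.71 ± 0.19). Scg3, a granin of secretory granules, was at 1714 and 1661 against 945 and 940.3 (-0.84 ± 0.29). Sncg, gamma-synuclein of peripheral and cranial neurons, was at 5528 and 6150.0 against 3176 and 3424 (-0.82 ± 0.35). In each of these genes the 2 wild-type values were close to each other relative to the gap between genotypes, except in Gap43.

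Several bright members of the same list had small differences. Basp1, a membrane protein of axons, was at 25054 and 25137 against 21080.4 and 21030.2 (log2 change -0.25 ± 0.13). Nnat, neuronatin, was at 49776 and 52219 against 44281 and 45154 (-0.19 ± 0.11). Tubb2b, a neuronal beta-tubulin, had a log2 change of -0.10 ± 0.13. The neurofilament genes Nefm and Nefl had -0.25 ± 0.26 and -0.17 ± 0.23. Dpysl2, a collapsin response mediator, was the 1 gene whose mutant arrays both lay above wild-type, at 2283 and 2361 against 1778 and 1690.2 (0.42 ± 0.40).

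**Figure D3:**
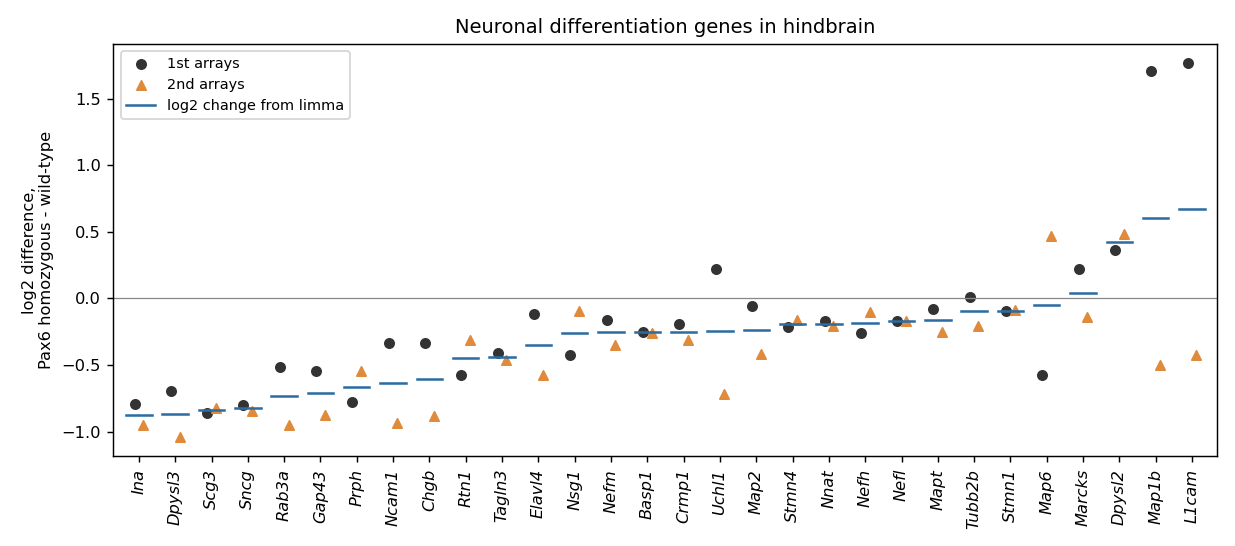
Log2 difference, Pax6 homozygous minus wild-type, for 30 neuronal differentiation genes on the 1st arrays (circles) and 2nd arrays (triangles), with the log2 change from limma as a bar. Genes run from Ina at -0.87 to L1cam at 0.67, and 26 of the 30 bars lie below 0.

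The count of negative members ran from 23 to 27 when 1 array was left out, and the median from -0.34 to -0.23. After quantile normalization the median was -0.24. With a log scale set by each array's own noise level it was 0.16, when the median of all probe sets was 0.40. Bright probe sets as a whole were lower in the mutant: of the brightest of 5 equal groups of those tested, 59.1% had a negative log2 change and 26.7% had both mutant arrays below wild-type. The neuronal list has 14 of its 30 genes in that group, of which 13 were negative. The part of overall brightness in the values of this list was not tested.

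Genes of synaptic vesicles and exocytosis showed no common direction, with 12 of 23 negative and a median of -0.01. Mutant arrays lay below wild-type for 3 and above for 2 (14.8% and 19.5% of all genes). Without the 2nd wild-type hindbrain array 16 were negative and the median was -0.35. Syp, synaptophysin, was at 2135 and 1888 in wild-type and 1057 and 1023 in mutant hindbrain (log2 change -0.95 ± 0.44). Dnajc5, the cysteine string protein of vesicles, was at 5857 and 5858 against 7768 and 7464 (rc_AA859806_at, 0.38 ± 0.16), with overlap on its dimmer probe sets. Snap25, a fusion protein of the presynaptic membrane, was at 2277 and 1669 against 2632 and 1894 (0.20 ± 0.31). Syp and Dnajc5 thus lay on opposite sides, and Snap25 overlapped between genotypes. Cplx1, a complexin, was dim on all 4 arrays.

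Among 23 motor neuron and cholinergic genes, 13 had a negative log2 change (45.8% of all genes), the mutant arrays lay below wild-type for 7 and above for 3 (14.8% and 19.5% of all genes), and the median was -0.13. When 1 array was left out that median ran from -0.43 to 0.02, the latter without the 1st wild-type hindbrain array. Ecel1, an endopeptidase of motor and other neurons, was at 1342 and 1486 in wild-type and 339 and 299 in mutant hindbrain, of which 1 was above noise (log2 change -2.15 ± 0.50, limma adjusted p = 0.894). Slc18a3, the vesicular acetylcholine transporter, was at 2230.2 and 1468 against -367 and 994 on U09211_at (-3.08 ± 1.14), so the mutant arrays disagreed with each other. Its other probe set, X80395cds_s_at, was at 650 and 604 against 647 and 537 (-0.09). Slc18a3 was called only without the 2nd mutant hindbrain array, at -5.30 (adjusted p = 0.0473).

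Transcription factors of motor neurons gave no clear difference. Isl1, a LIM homeodomain factor of motor and sensory neurons, was at 3096 and 2807 in wild-type and 1726 and 2705 in mutant hindbrain (log2 change -0.45 ± 0.70). Its 2nd arrays were nearly equal, and its other probe set overlapped (0.02 ± 0.61). Isl2, its relative, was at -203 and -13.2 against 72.2 and 482, with 1 of 4 arrays above noise. Phox2a, a factor of visceral motor and noradrenergic neurons, was at 661 and 843 against 689 and 855 (0.04 ± 0.78). Pou3f1, a POU factor of some motor neurons, was at 614 and 629 against 481 and 520 (-0.31 ± 0.36), where the 1st wild-type array was just under noise.

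Prph, peripherin, an intermediate filament of motor and sensory neurons, was at 1943 and 1803 against 1131 and 1235 (-0.66 ± 0.48). Ngfr, the p75 neurotrophin receptor, was at 7502 and 5762 against 4533 and 4266 (X05137_at, -0.58 ± 0.21), with an unadjusted p below 0.05. Its probe set U25650_f_at gave 0.93 ± 1.57. Gfra1, the GDNF receptor alpha 1, was higher on both mutant arrays, at 849 and 839.6 against 568 and 404 (rc_AI070721_s_at, 0.82 ± 0.74), but overlapped on its other probe set, U97142_at, at 832 and 1026 against 920 and 991 (-0.05 ± 0.93). Among nicotinic receptor subunits, Chrnb2 had a log2 change of -0.57 ± 0.61, Chrnb4 of -0.12 ± 0.41, Chrna3 of 0.18 ± 0.53, Chrna4 of 0.26 ± 0.74 and Chrna7 of 0.07 ± 0.52 on L31619_at. Each of these 5 values was smaller than its standard error. A second Chrna7 probe set, S53987_at, was at 120 and 4.5 against 641 and 275, with no wild-type array above noise. It was at least 1.02-fold higher, a bound that sets the measured mutant values against wild-type values raised to their noise level.

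Of 31 genes listed for ventral progenitors and interneurons, 6 were tested, and 2 were above noise on all 4 arrays. Foxa2, a floor plate factor, was at 523 and 296 in wild-type and 767 and 577 in mutant hindbrain (log2 change 0.76 ± 0.45). Shh, the signal of the floor plate, was at 504 and 808 against 990.5 and 957 (0.61 ± 0.45). Both genes were higher on both mutant arrays, as was Gata3, a factor of V2b and serotonergic neurons (1.05 ± 1.12). In Foxa2, Shh and Gata3 the 1st wild-type array was under its noise level. The mutant arrays lay above wild-type for 3 of the 6 genes and below for 1 (19.5% and 14.8% of all genes). Lhx1, a LIM factor made by V1 and other interneurons, was at 1000.4 and 304 against 270.1 and 58.1, with both wild-type arrays and no mutant array above noise, at least 1.79-fold lower. Nkx6-1, a factor of ventral progenitors, was at 1498 and 1553 against 2014 and 1197 (0.03 ± 0.35), and Fev, a factor of serotonergic neurons, had a log2 change of 0.07 ± 0.32.

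**Figure D4:**
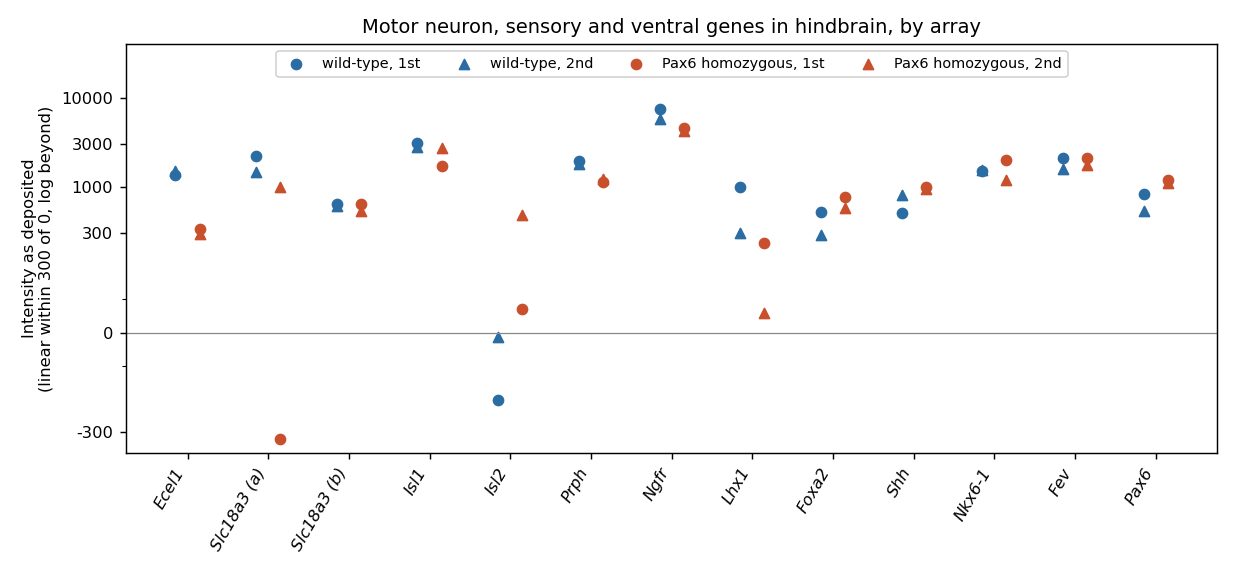
Deposited intensity on the 2 wild-type and 2 Pax6 homozygous hindbrain arrays for motor neuron, sensory and ventral genes and Pax6, with Slc18a3 as U09211_at (a) and X80395cds_s_at (b). The axis is linear within 300 of 0 and logarithmic beyond. Ecel1, Prph and Ngfr are lower on both mutant arrays, Foxa2 and Shh are higher on both, and Nkx6-1 and Fev overlap.

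Genes of neural progenitors and radial glia, apart from Fabp7, had values on both sides. Of 26 tested, 14 were negative, the mutant arrays lay below for 5 and above for 6 (14.8% and 19.5% of all genes), and the median was -0.03. Bcan, the proteoglycan brevican, was at 501 and 590.3 in wild-type and 1795 and 927 in mutant hindbrain (log2 change 1.25 ± 0.43). Its 1st wild-type array was under noise. Id2, which holds basic helix-loop-helix factors inactive, was at 8096 and 9818 against 13069 and 10491 (0.39 ± 0.18). Notch1, a receptor that maintains progenitors, was at 8022 and 6813 against 6345 and 4786 (-0.42 ± 0.22). Among the members that overlapped were the filament protein of progenitors Nes (-0.08 ± 0.19), Vim, vimentin (-0.14 ± 0.15), Slc1a3, the glutamate transporter of radial glia (-0.03 ± 0.28), and the Notch target Hes5 (-0.26 ± 0.23).

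Among 11 proneural and related factors, 6 were negative, with a median of -0.04. Tcf4, an E protein that pairs with proneural factors, was at 4089 and 2699 in wild-type and 1763 and 2202 in mutant hindbrain (log2 change -0.75 ± 0.33). Tcf12, another E protein, was at 4240.3 and 4281 against 5463 and 5429 (0.35 ± 0.22). Neurod1, a factor of newborn neurons, overlapped between genotypes (0.10 ± 0.20). Of the cell cycle genes 13 of 37 were negative, against 45.8% of all genes, and 24 positive, with a median of 0.03. Plk1, a mitotic kinase, was at 10332 and 10993 against 14226 and 14604 (0.44 ± 0.15), and Cdk2, a kinase of S phase entry, had 0.68 ± 0.26. Ccnd1, cyclin D1, was at 12715 and 12190 against 9769 and 9689 (D14014_g_at, -0.36 ± 0.16). Pcna and Top2a, markers of replicating and dividing cells, had 0.01 ± 0.12 and 0.07 ± 0.14 with overlapping groups.

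Sensory ganglia and glia of neural crest origin lie in the same tissue piece. Of 18 tested genes of this list, 14 were negative, the mutant arrays lay below wild-type for 5 and above for 0 (14.8% and 19.5% of all genes), and the median was -0.21. Without the 2nd mutant hindbrain array 10 were negative and the median was -0.04, and without the 2nd wild-type hindbrain array it was -0.40. Prph, Ngfr and Isl1, described above, are among the 5. P2rx3, an ATP receptor of sensory neurons, was at 1101 and 1072 in wild-type and 752 and 824 in mutant hindbrain (log2 change -0.46 ± 0.41). Tac1, the precursor of substance P, had -0.57 ± 0.48. Sox10, a factor of crest and glia, was at 623 and 431 against 142 and 483 (-0.99 ± 0.83), with overlap. The summed intensity of the list was 33241 and 30104 against 26168 and 26252. Its part in the neuronal values was not tested.

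Genes that mark other transmitter systems were mostly dim. Gad1, the enzyme that makes GABA, was at 427 and 510 against 235 and 167, with 1 of 4 arrays above noise (-1.23 ± 0.51). Of 13 inhibitory genes 7 were negative, of 18 excitatory genes 10, and of 13 monoamine genes 5, with medians of -0.01, -0.03 and 0.04. Ddc, the decarboxylase of dopamine and serotonin synthesis, was at 362 and 1543 against 1848 and 3078 (1.67 ± 0.85). Its lower mutant value exceeded its higher wild-type value, but the wild-type arrays differed from each other more than that gap. The 1st of them was under noise. For the genes of hindbrain position, 2 of 8 were negative with a median of 0.05. Nr2f1, an orphan nuclear receptor, was at 15178 and 18642 against 19403 and 19798 (U10995_g_at, 0.22 ± 0.17), with overlap on U10995_at (-0.23 ± 0.56), and Hoxa5 had -0.13 ± 0.52.

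Secreted signals and their receptors lay mostly on the positive side. Of 33 tested genes, 22 were positive and 11 negative (45.8% of all genes), the mutant arrays lay above wild-type for 10 and below for 2 (19.5% and 14.8% of all genes), and the median was 0.19. It was 0.02 without the 2nd wild-type hindbrain array. Fst, follistatin, which binds activins, was at 653 and 756 in wild-type and 1367 and 1062 in mutant hindbrain (rc_AA858520_g_at, log2 change 0.78 ± 0.40). Its other probe set, rc_AA858520_at, was at 111 and 298 against 646 and 1056 (2.19 ± 0.57), with the 1st wild-type array under noise. Fgfr2, a receptor of fibroblast growth factors, was at 1040.1 and 1362 against 1835 and 2456 (Z35138cds_s_at, 0.84 ± 0.44), and overlapped on its other tested probe sets. Ntf3, the neurotrophin NT-3, was at 4433 and 4398 against 6044 and 5284 (M34643_at, 0.36 ± 0.22). Tgfb2, a growth factor of mesenchyme, lay on the other side, at 1281 and 1028 against 605 and 324 (-1.37 ± 0.51).

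The genes with the smallest p among those above noise on all 4 arrays, and without overlap between genotypes, are described next, 12 in each direction. Pgk1 (rc_AA892797_at), phosphoglycerate kinase, was at 9294 and 9486 in wild-type and 35716 and 32605 in mutant hindbrain (log2 change 1.86 ± 0.22, limma adjusted p = 0.0620). Leaving out 1 hindbrain array gave log2 changes from 1.80 to 1.93. The other Pgk1 probe sets gave 0.32 ± 0.33 (M31788_at) and 0.13 ± 0.11 (M31788_g_at), so this difference belongs to 1 probe set. Sfpq, a splicing factor, was at 6302 and 6106 against 13079 and 11545 (AF036335_at, 0.99 ± 0.19). In forebrain that probe set was at 11485 to 16568 on all 4 arrays, so the wild-type hindbrain arrays were the low ones. Its other probe set gave -0.04 ± 0.40.

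The further higher genes, chosen by the same rule, follow. Eif4a2, an RNA helicase of translation initiation, was at 9757 and 11903 in wild-type and 16211 and 16988 in mutant hindbrain (log2 change 0.62 ± 0.17). Ddx39b, an RNA helicase of mRNA export, was at 20943 and 21183 against 30022 and 30878 (rc_AA892014_s_at, 0.53 ± 0.17), while M75168_at gave 0.06 ± 0.13. Ssb, the La protein that binds new small RNAs, was at 3863 and 4396 against 6985 and 7298 (X67859_at, 0.79 ± 0.24), with 0.34 and 0.43 for its other probe sets. RT1-CE16, a class I histocompatibility gene whose probe set can share sequence within its family, was at 6646 and 5559 against 12195 and 11026 (0.93 ± 0.23). Cabin1, a calcineurin-binding protein, was at 4354 and 4405 against 7338 and 8420.3 (AF061947_at, 0.84 ± 0.17), but its other probe set gave -0.60 ± 0.45. In Pgk1, Sfpq, Cabin1 and Ddx39b, probe sets of 1 gene thus did not show 1 size of difference. Azin1, Zfp386, Adap1, Minpp1 and F2r completed the 12, with log2 changes from 0.56 to 0.95. Other probe sets gave smaller values, 0.27 ± 0.18 for Azin1 and 0.33 ± 0.35 for Minpp1. A dimmer Adap1 probe set gave -0.06 ± 0.74 with overlap.

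On the lower side Fabp7, Ina and Gap43 are given above, and 9 genes remain. Psat1, an enzyme of serine synthesis, was at 8742 and 7532 in wild-type and 5243 and 4629 in mutant hindbrain (rc_AI102868_g_at, log2 change -0.72 ± 0.17). The probe set rc_AI102868_at gave -0.81 ± 0.26, and rc_AI230228_at gave 0.02 ± 0.17. Mx2, an interferon-induced GTPase, was at 1879 and 1433 against 725 and 690.3 (-1.21 ± 0.29). Dlgap4, a scaffold protein of synapses, was at 1674 and 1525 against 862 and 480.3 (U67140_at, -1.31 ± 0.38). Its dimmer probe set U67140_g_at gave 0.20 ± 1.69 with overlap. None of Psat1, Mx2 and Dlgap4 passed, and their lack of overlap was part of the rule that chose them.

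Ndufa8 and Ndufb10, subunits of respiratory complex I, had log2 changes of -0.87 ± 0.27 and -0.58 ± 0.20. Gstm1, a glutathione transferase, was at 5121 and 4606 against 2585 and 2889.9 (H32189_s_at, -0.83 ± 0.26), with -0.42 on both of its other probe sets. Atp6v0c, a proton pump subunit, and Ptms, parathymosin, had -0.57 ± 0.18 and -0.56 ± 0.17, though a dimmer Ptms probe set gave 0.33 ± 0.32 with overlap. Psmb4, a proteasome subunit, was at 45211 and 27914 against 17833 and 22404 (L17127_g_at, -0.83 ± 0.23), but rc_AI172162_at gave 0.22 ± 0.15. Psmb4 and Ptms are thus further genes whose probe sets differed in sign, as did those of Psat1, Dlgap4 and Adap1.

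Where both arrays of 1 genotype were under noise and both of the other above it, the fold is given as a lower bound for 4 genes per direction, chosen by p. Trpv1, a heat-gated channel of sensory neurons, was at 1271 and 302 in wild-type and 153 and 53.7 in mutant hindbrain, at least 2.01-fold lower. Gucy2g, a guanylate cyclase, was at least 1.71-fold lower, Adrb3, a beta-adrenergic receptor, at least 1.62-fold, and Cyp4f4, a cytochrome P450, at least 1.60-fold. Scarb1, a lipoprotein receptor, was at -1147 and -117 against 870.3 and 920 on AF071495_s_at, at least 2.18-fold higher. Its other probe sets did not show this, with -0.04 ± 0.35 on D89655_at, above noise on all 8 arrays, and both mutant arrays below wild-type on rc_AA874843_s_at (-2.61 ± 1.46). A probe set of the growth factor Igf1 (X06107_r_at), at -1147 and -969 against 1934 and 535, was at least 2.48-fold higher. The brightest tested Igf1 probe set overlapped between genotypes (-0.04 ± 0.29). Bend3 was at least 1.77-fold higher on rc_AA859996_at, while its brighter probe set rc_AA859996_g_at was at 3263 and 3566 against 3866 and 3679 (0.14 ± 0.25). Capn9 was at least 1.24-fold higher. None of the 8 genes of this rule passed (limma adjusted p from 0.894 to 0.989). The bounds are minimum values, so they cannot be ranked against the fold of Fabp7.

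Other tissues of the dissection were measured in the same arrays. Of 13 blood genes, 10 were negative, the mutant arrays lay below wild-type for 7 and above for 0 (14.8% and 19.5% of all genes), and the median was -0.22, or -0.11 without the 1st wild-type hindbrain array. Hbe1, an embryonic globin, was at 100496 and 88493 in wild-type and 81918 and 81639.9 in mutant hindbrain (log2 change -0.21 ± 0.11). Slc4a1, the anion exchanger of red cells, had -0.42 ± 0.25. The summed intensity of the blood list was 188391 and 172026 against 155714 and 159048, so its values and the neuronal values were lower in the same arrays. The part of blood RNA in the neuronal values was not tested.

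Ribosomal protein genes showed the same side more uniformly. Of 37 tested, 33 were negative, 21 lay below wild-type and 2 above (14.8% and 19.5% of all genes), and the median was -0.14. Rpl35 was at 81885 and 75199 against 62381 and 62888, and Rps6 at 69236 and 65053 against 58229 and 53951. Their other probe sets overlapped (-0.09 ± 0.18 and -0.05 ± 0.12). After quantile normalization, however, the median was 0.03 and 13 of 37 were negative, so the direction depends on the scaling. Of these genes, 33 lie in the brightest of the 5 groups.

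Mesenchyme and pharyngeal arch genes had 21 of 30 negative with a median of -0.05, and cartilage genes 7 of 10 with -0.26. Col2a1, the main collagen of cartilage, was at 17844 and 20368 against 15518 and 14424 (-0.35 ± 0.19). Epithelium and endoderm genes had 12 of 18 negative (median -0.20), and muscle and heart genes 15 of 33 (0.04). Endothelial genes had 5 of 13 negative (0.04), macrophage genes 4 of 9 (0.01), adhesion and guidance genes 11 of 22 (-0.03) and stress and hypoxia genes 15 of 30 (-0.01). Retinoic acid genes had 7 of 12 negative with a median of -0.21, and Rara, a retinoic acid receptor, was at 7802 and 6537 against 9397 and 8438 (U15211_at, 0.32 ± 0.19), with negative values of -0.10 and -0.35 on its dimmer probe sets. Forebrain and eye genes had 6 of 13 negative and a summed intensity of 9288 and 5701 against 8081 and 6716. Without the 1st wild-type hindbrain array the cartilage and epithelium medians were -0.05 and 0.08, and without the 2nd the retinoic acid median was 0.03. Leaving out 1 hindbrain array moved several such counts of negative members widely, to between 2 and 10 for endothelial, 5 and 12 for excitatory, 4 and 9 for inhibitory, 3 and 9 for forebrain and eye, 9 and 14 for progenitor and 12 and 21 for cell cycle genes. The progenitor list held 1 member that passed, Fabp7, and the other lists of this paragraph held 0, beside the 0.017% of all probe sets tested.

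**Figure D5:**
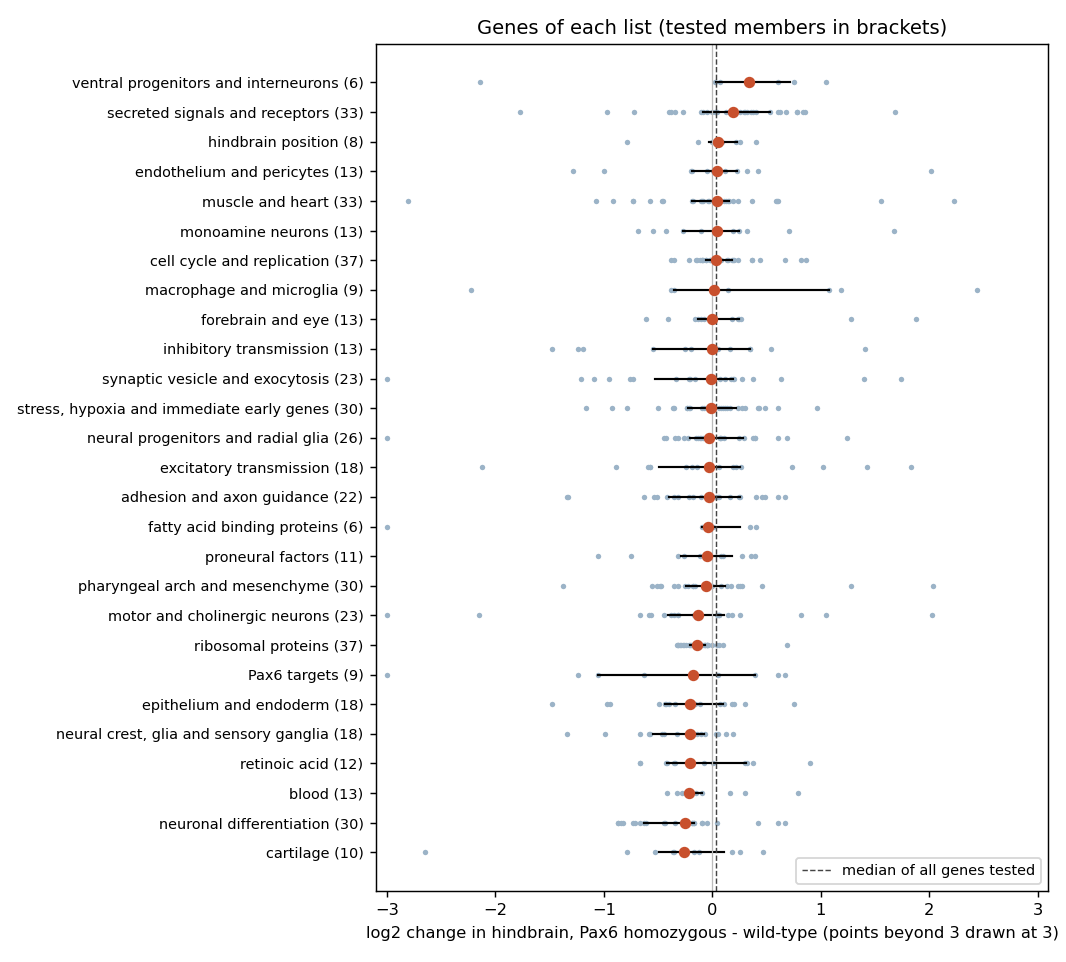
Log2 change in hindbrain, Pax6 homozygous minus wild-type, of the tested members of each gene list (small points), with the list median (large point) and its quartiles (line). The neuronal differentiation and cartilage medians lie lowest, at -0.25 and -0.26, the ventral median of 6 genes lies highest, at 0.34, and the dashed line is the median of all genes, 0.03.

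Whether hindbrain differences were unlike forebrain differences was tested as an interaction. With limma, 0 of 5881 probe sets (0.0%) passed, and 112 (1.9%) had an unadjusted p below 0.05. Values follow for the 3 genes per direction with the smallest p among those above noise on all 8 arrays. Ina on rc_AA875659_s_at was at 17269 and 15727 against 10302 and 9203 in hindbrain, and in forebrain at 3958 and 3571 against 4133 and 4910 (interaction 1.02 ± 0.25 on the log2 scale). Mx2 was at 1988 and 1648 against 2357 and 1862 in forebrain (1.42 ± 0.41). Psat1 on rc_AI102868_at was at 4593 and 3541 against 2630 and 2008 in hindbrain and at 3020 and 2170 against 4578 and 4213 in forebrain (1.59 ± 0.37). On the Ina and Psat1 probe sets the mutant arrays lay below wild-type in hindbrain and above it in forebrain, while the forebrain values of Mx2 overlapped. Other probe sets gave smaller interactions. Ina on M73049_at was lower in forebrain too, at 6270 and 5536 against 5211 and 3562 (interaction 0.42 ± 0.29), and Psat1 had 0.75 ± 0.24 on rc_AI102868_g_at and 0.32 ± 0.24 on rc_AI230228_at.

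In the other direction, Cabin1 on AF061947_at was at 5604 and 5316 against 5512 and 5375 in forebrain (interaction -0.85 ± 0.24). Its other probe set, AF061947_g_at, gave an interaction of the opposite sign, 1.83 ± 0.64, and is also above noise on all 8 arrays. Marcks, a substrate of protein kinase C, was at 3104 and 3633 against 3095 and 3240.3 in hindbrain (rc_AA859896_at, -0.08 ± 0.22), with an interaction of -1.69 ± 0.32. Its 3 other tested probe sets had interactions from -1.09 to -0.34. Cryaa, the lens protein alpha-A crystallin, had an interaction of -2.68 ± 0.52, and its hindbrain values of 1018 and 737 against 1189 and 894 overlapped. The smallest adjusted p of the interaction was 0.9995.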

How the data were processed

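The hindbrain comparison used 4 of 8 arrays (E12.5 rat embryos, labels as titles give them). The values are linear intensities deposited by the authors, 1 for each probe set on each array. The software and algorithm behind them were not given in the sources used here, nor was the scaling. A mean with 2% trimmed at each end lay between 2504.1 and 2504.8 on every array, so the scale was kept. Values below the pooled 25th percentile (45.9) were raised to it before log2. Probe sets that exceeded the pooled 40th percentile (255) on 2 or more arrays were tested: 5881, of which 4846 had 1 symbol in the platform annotation (3553 genes). Of all probe sets, 308 had several symbols and 1473 were unlisted, and none of these was named. One model with 4 group means was fitted in limma 3.58.1 (R 4.3.3), with an intensity trend, 4 residual and 4.63 prior degrees of freedom, and two-sided p-values adjusted by the Benjamini-Hochberg method. ± beside a log2 change is the SE. The small number of arrays limits precision. The pipeline was tested on simulated data.

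A bound in the form of at least N-fold sets the measured values of the bright side against the dim side with no dim array taken below its noise level. Lists use 1 probe set per gene, the brightest tested, and were described by counts and medians. Members and lists were chosen with earlier results of these data known. Named genes are those past the threshold, the 12 per direction with the smallest p among non-overlapping probe sets above noise, the 4 per direction whose dim side was under noise, 3 per list, the Pax6 target, motor and ventral lists, and 3 per direction for the interaction. Other list members were taken as examples after their values were seen. Other settings tried were the floor, the filter, generalised logs, quantile normalization, the variance trend, the hindbrain arrays alone, the replicate number as a block, and each array left out. Promoters came from RefSeq (GRCr8).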

Additional observations from a re-analysis of the deposited data

How the results depend on the processing

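Fabp7 passed in 16 of 17 other settings, with log2 changes from -3.80 to -3.29. It did not pass with a generalised log scaled by each array's own noise level (log2 change -3.29, adjusted p = 0.230), which moved the median of all probe sets by 0.37 and under which 1 other probe set passed. With 1 common noise level, a setting chosen after seeing the data, Fabp7 passed (-3.69). Counts of probe sets that passed were 15 with the floor at the pooled median, 22 without a filter, 5 without a variance trend, 2 with the 4 hindbrain arrays alone and 2 among probe sets above noise on all 4 hindbrain arrays. Leaving out 1 array gave 1 to 3 (3 without the 2nd wild-type hindbrain array; 2 without the 1st, without the 2nd mutant hindbrain array or without either wild-type forebrain array), and 146 to 452 at an unadjusted p below 0.05. The interaction count was 8 with that floor, 13 without a filter, 4 without a trend, and 0 to 1 leaving out 1 array. The causes were not tested, beyond the fewer or more probe sets that a filter leaves. The labels do not say that the 1st and 2nd arrays pair samples. Deviations of same-numbered arrays had r from 0.275 to 0.465 between groups. With the replicate number as a block, 2 probe sets passed, Fabp7 and the Pgk1 probe set (adjusted p = 0.0498). Pgk1 passed in 5 of 17 settings.

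Of 107 named probe sets, 13 turned direction in some setting. With the generalised log scaled by each array's own noise, Aldh1a1 was at 0.060, Col2a1 at 0.063, Hbb at 0.14, Hbe1 at 0.21, Hspa5 at 0.18, Krt5 at 0.063, Marcks at 0.32, Rpl27a at 0.11, Rpl35 at 0.088 and Rps6 at 0.15. The median of all probe sets was 0.40 in that setting, and each of these 10 values lay below it, so relative to the other probe sets they kept their side. Leaving out 1 array, log2 changes ran from -0.0082 to 0.82 for Fabp6, from -0.20 to 0.029 for Marcks and from -1.11 to 0.018 for Th, each turning without the 2nd wild-type hindbrain array. Those of Nkx2-1 ran from -1.38 to 0.15, turning without the 1st. List medians had the opposite sign in 58 of 351 combinations of a list and a setting, in 23 lists. Leaving out a forebrain array cannot move a hindbrain log2 change, so those combinations could only agree. Dim values were a limit too: at most 61.2% of probe sets lay above noise on a hindbrain array.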
